A study of Mus musculus with 9 samples.

Results

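The genes described here are 10 genes of the PIWI-interacting RNA (piRNA) pathway, taken by symbol from the 32285 genes of the deposited count matrices: Piwil1, Piwil2, Piwil4, Mov10l1, Tdrd1, Tdrd5, Tdrd9, Mael, Asz1 and Ddx4. All 10 symbols were found once. Each UMI tags 1 captured transcript at its 3′ end. For every mouse, the UMIs of all cells at a germ cell stage were added up, and levels are given in CPM, which sets the total of each such sum to the same size.

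piRNAs are short RNAs of animal germ cells that guide PIWI proteins, a branch of the Argonaute family, to transposon and other transcripts. Long precursor transcripts are unwound, cut and trimmed on the surface of mitochondria and in neighboring RNA granules called nuage, where Tudor domain proteins hold the PIWI proteins and the processing enzymes together. In the mouse testis, the pathway silences transposons in prospermatogonia and then makes a large second population of piRNAs, the pachytene piRNAs, during meiotic prophase, and loss of its core factors typically leaves males sterile.

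Single cell RNA-seq libraries were prepared from the whole testis of C57BL/6 mice (C57BL/6 J by the methods of the study) at post-natal day 24, and each mouse gave 1 library. There were 4 controls, 2 mice with a conditional knockout (cKO) of NELF-B and 3 with a cKO of TDP-43. Control mice were littermates or non-littermates of the cKO mice. Each cKO mouse carried 1 floxed and 1 null allele of the targeted gene, with loxP sites around exons 1 to 4 of Nelfb, which encodes a subunit of the negative elongation factor that holds RNA polymerase II near promoters, or around exon 3 of Tardbp, which encodes the DNA and RNA binding protein TDP-43. A Stra8-iCre transgene, active in spermatogonia (SG) of the early postnatal testis, deletes the floxed exons in germ cells. The null allele is present in every cell of these mice, somatic cells included. The question addressed was how the levels of the pathway genes ran from SG to round spermatids (RS) by way of spermatocytes (SC), which were divided into preleptotene and leptotene (pL/L), then zygotene (Z), pachytene (P) and diplotene (D), and how they differed between the genotypes.

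Stages were assigned to clusters of cells from marker genes, with the 10 genes and the other pathway genes left out of the clustering. SG numbered 500 to 634 in the control mice after all filters, Z SC 197 to 604, P SC 230 to 562 and RS 337 to 862. No cluster was named from the L markers alone, and the clusters called pL/L were led by Prdm9, which is a marker of both stages. SG, pL/L and Z cells of cKO mice that held any UMI of the deleted gene were removed, following the study. Such a UMI was present in 233 of 3433 germ cells in NELF-B cKO and in 3112 of 5838 in TDP-43 cKO testes. No cell was removed from P, D and RS of either line, a departure from the study, because 0 to 9 P or D cells per TDP-43 cKO mouse would have remained. The removal would also have left 282 and 24 P SC and 321 and 9 RS in NELF-B cKO mice, and 1, 29 and 58 RS in TDP-43 cKO mice.

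Several measurements of the libraries bear on the values that follow. They held 119203347 to 159407373 UMIs. The median per barcode past the filters was 1754 to 6369 UMIs in control, 5165 and 17312.5 in NELF-B cKO and 14117 to 19254 in TDP-43 cKO mice. Barcodes in clusters left unnamed numbered 1743 to 5835 per control mouse, 1866 and 80 in NELF-B cKO and 1, 115 and 112 in TDP-43 cKO mice. Of the 45132 barcodes past the filters, 260 occurred in more than 1 library. SG lay in 3 clusters, and pL/L cells and RS in 2 each. RS cluster 8 had 1875 cells with a median of 2943 UMIs and RS cluster 15 had 1118 cells with a median of 29022 UMIs. Cluster 8 held 674 of 862, 176 of 337, 426 of 621 and 257 of 612 RS of control mice 1 to 4. In both pL/L clusters and in 2 of the SG clusters, the cells of NELF-B cKO replicate 1 lay with those of the control mice while NELF-B cKO replicate 2 lay with the TDP-43 cKO mice: SG cluster 4 held 968 cells of NELF-B cKO replicate 1 and 1 cell of replicate 2, whereas SG cluster 7 held 9 and 287. The remaining SG cluster held 77 to 407 cells of each of the 9 mice. The labels give no litter, batch or date. Free RNA, estimated in SG from Leydig cell markers, made up 18.8% to 21.5% of control UMIs, against 9.26% and 5.41% for NELF-B cKO and 3.27%, 14.9% and 9.54% for TDP-43 cKO. An estimate from spermatid markers ran the other way, at 6.17% to 10.5%, 11.3% and 29.5%, and 42.7%, 15.2% and 15.4%. Where free RNA was subtracted as an alternative, the smaller estimate of each mouse was used in SG, pL/L and Z and in the sums that pool them. In SG this was the spermatid one for the control mice and the Leydig one for the cKO mice. In P, D and RS the Leydig estimate was used. The part of these differences in the results was not tested beyond the alternatives given beside them.

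The targeted genes were lower in SG of the mice labelled as their cKO, before any cell was left out. In SG, Nelfb stood at 65.2 to 78.2 CPM in controls, against 4.94 and 5.09 CPM in NELF-B cKO. Tardbp stood at 67.0 to 90.8 CPM in control SG and at 30.7, 34.8 and 35.5 CPM in TDP-43 cKO SG. In later stages this did not hold throughout. In RS, Nelfb was not lower under the NELF-B cKO label, with 7.84 to 23.3 CPM in control mice and 24.7 and 65.1 CPM in NELF-B cKO mice, the latter from 13 cells, so RS and comparisons on them are given as labelled. Tardbp in the 2 TDP-43 cKO mice compared overlapped control in P SC, at 91.3 and 77.7 CPM against 85.6 to 118 CPM, and in D SC, at 38.9 and 34.1 CPM against 36.0 to 53.0 CPM. In Sertoli cells Nelfb stood at 6.31 and 10.5 CPM in NELF-B cKO against 21.8 to 29 CPM in control mice, and Tardbp at 74.6 to 80.7 CPM in TDP-43 cKO against 102 to 111 CPM. UMIs were read from the 3′ ends of transcripts, outside the deleted exons, and do not show whether a given cell carried the deletion.

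The 10 genes lie on 9 chromosomes of GRCm38. Piwil1 spans chr5:128702524-128755474 on the plus strand, Piwil2 chr14:70372477-70429383 on the minus strand and Piwil4 chr9:14696230-14740733 on the minus strand. The helicase genes are Mov10l1 at chr15:88982909-89055152 (plus), Tdrd9 at chr12:111971559-112068854 (plus) and Ddx4 at chr13:112598333-112652475 (minus). Tdrd1 spans chr19:56826209-56870012 (plus), Tdrd5 chr1:156255296-156303664 (minus), Mael chr1:166201201-166238747 (minus) and Asz1 chr6:18050964-18109061 (minus).

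A-MYB, the transcription factor encoded by Mybl1, is known to drive pachytene piRNA precursors and genes of the pathway, so promoters were searched on both strands for its motif, AACNGNC. RefSeq promoters (GRCm38.p6, 250 bases before to 50 bases after the start of the transcript) were on hand for 9 of the 10 genes, all but Piwil2, and 6 of the 9 held a match. Over all 27025 genes with a promoter, 36.0% held one. The matches below are shown because these genes moved by different amounts in the comparisons that follow. Each is given with 11 bases on either side, in the direction of transcription, with the motif or its reverse complement in capitals.
Piwil1, chr5:128736046-128736074, 189 bases before the start: gccccacacaaAACCGCCacccacgtggc
Mov10l1, chr15:88982745-88982773, 238 bases before the start: cttcacgtgctAACCGCCaacctctcgtg
Mov10l1, chr15:88982766-88982794, 217 bases before the start: ctctcgtggctAACGGTCgagcctcgtgg
Tdrd9, chr12:111971541-111971569, 7 bases before the start: gaggcttctggAACGGTCgttggcctgct
Tdrd1, chr19:56830579-56830607, 122 bases before the start: ggaattgagaaGGCGGTTtggatggtcag
Tdrd5, chr1:156303478-156303506, 147 bases before the start: aggtctccgctAACCGTCacaccggccgc
Mael, chr1:166238824-166238852, 97 bases before the start: atccagtttcaGGCTGTTttcacccccac

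Piwil1 held 3 matches, the other pair 75 and 66 bases before the start. Its whole 250 bases before the start, chr5:128735996-128736245 on the plus strand, are given to show how the 3 lie relative to each other, with the matches again in capitals. This start lies inside the annotated span of the gene, as does that of the Tdrd1 promoter with a match, while the other 2 Tdrd1 promoters, at the 5′ end of the gene, held none.
Piwil1: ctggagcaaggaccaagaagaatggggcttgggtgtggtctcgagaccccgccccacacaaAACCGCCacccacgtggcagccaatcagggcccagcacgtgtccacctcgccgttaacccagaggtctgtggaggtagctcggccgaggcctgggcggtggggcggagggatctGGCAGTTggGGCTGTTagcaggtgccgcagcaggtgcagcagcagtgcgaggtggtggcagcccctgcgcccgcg

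No match lay in the windows of Piwil4, Asz1 and Ddx4. A match says only that these letters are present.

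The stages at which the pathway genes were highest fell into 3 groups in the control mice. Piwil1, Tdrd1, Tdrd5 and Mael were highest in P SC, Piwil2, Mov10l1, Tdrd9, Asz1 and Ddx4 in Z SC, and Piwil4 in SG. All 10 kept the same highest stage when each cell took its stage from its own markers and when the cells were clustered more finely. Stages come from clusters of the same cells, so these levels are a description, without a test.

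Among the PIWI proteins, Piwil1 (MIWI), which carries the pachytene piRNAs, rose most steeply. It measured 93.3, 96.3, 85.2 and 75.4 CPM in the SG of control mice 1 to 4, 294, 301, 253 and 307 CPM in Z SC, and 800.3, 721, 868 and 813 CPM in P SC. The mean in P SC was 801 ± 60.6 CPM (SD, n = 4). In the clusters used here, P and Z stood apart from each other and from all other stages. The remaining neighbors in the order, D, pL/L, RS and SG, overlapped between mice. The place of D moved with the stage assignment. With each cell's own markers D lay between P and Z without overlap, and in the finer clustering it lay between them and overlapped Z. Piwil2 (MILI), which acts from the fetal testis onward and drives the cycle that amplifies piRNAs, was highest in Z SC at 399.8, 493, 383 and 434 CPM, with a mean of 427 ± 48.3 CPM (SD, n = 4) that was 3.1 times the level in SG. Its P SC levels of 159 to 206 CPM overlapped those of SG, 108 to 169 CPM. Piwil4 (MIWI2), the nuclear PIWI protein of prospermatogonia, was detected at a low level in SG, at 4.82, 7.70, 8.74 and 7.35 CPM, and at no more than 0.71 CPM at any later stage of any control mouse.

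The 3 helicase genes were all highest in Z SC. Mov10l1, whose product feeds precursor RNA into processing, measured 921, 978, 907 and 850.3 CPM in the Z SC of the control mice. The mean of 914 ± 52.2 CPM (SD, n = 4) was 2.92 times that in SG and 26.4 times that in RS, and in P SC the gene had dropped to 165 to 193 CPM, below its SG level. Tdrd9, a helicase that works in the nuage with MIWI2, reached 225 ± 22 CPM (SD, n = 4) in Z SC, 2.33 times its SG level. Ddx4 (mouse vasa homolog), the classical germ cell marker, measured 621, 712, 592 and 679 CPM in Z SC, 2.31 times its SG level, and remained at 430.1 to 469.9 CPM in P SC and 307 to 377 CPM in RS.

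Of the scaffold and granule proteins, Mael remained high after pachytene. Mael (Maelstrom) acts in transposon silencing and in piRNA production, and it measured 789, 697, 778 and 739 CPM in control P SC and 434 to 483 CPM in RS, so that the P mean of 750.4 ± 41.8 CPM (SD, n = 4) was 1.60 times that in RS. Tdrd1, which binds MILI in the nuage, reached 240.2 ± 24.0 CPM (SD, n = 4) in P SC against 76.0 to 97.7 CPM in SG, and was lowest in pL/L SC at 32.4 to 46.5 CPM. Tdrd5, needed for the chromatoid body and pachytene piRNAs, reached 167 ± 11.1 CPM (SD, n = 4) in P SC against 40.7 to 59.5 CPM in SG. Asz1 (GASZ), which anchors the nuage to mitochondria, rose least of the 9 genes that were highest in SC, 1.86 times from SG to Z, with 159 ± 14.7 CPM (SD, n = 4) in Z SC against 68.5 to 96.5 CPM in SG.

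**Figure D1:**
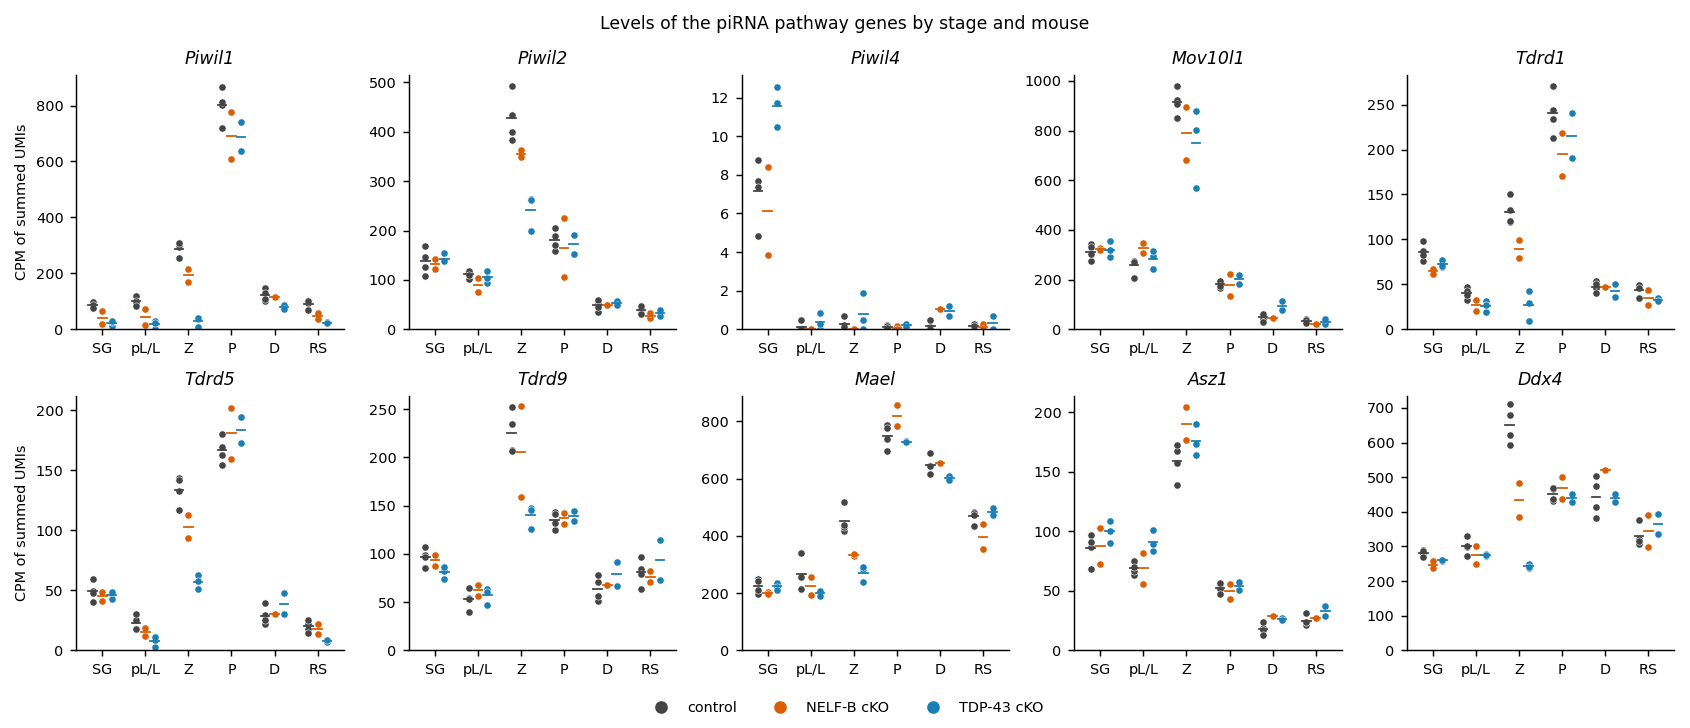
CPM of each of the 10 genes (y axis, 1 panel per gene) in SG, pL/L, Z, P, D and RS (x axis) of control (grey), NELF-B cKO (orange) and TDP-43 cKO (blue) mice. Each point is 1 mouse, short lines are group means and mice with fewer than 10 cells of a stage are not drawn. The control points of Piwil1 climb from 75.4 to 96.3 CPM in SG to 721 to 868 CPM in P SC. In Z SC the blue points of 7 genes, Piwil1, Tdrd1 and Ddx4 among them, lie below all grey points, as they do for 21.9% of all genes with a mean of at least 1 CPM.

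The amount of RNA per cell differed between stages, and UMIs per cell give a second scale. A control P SC held on average 49.6 to 68.3 UMIs of Piwil1, against 3.13 to 6.18 in a Z SC and 0.648 to 1.50 in a Sertoli cell, a somatic cell in which the gene is not known to act. In Leydig cells Piwil1 stood at 1.04 to 1.80 UMIs per cell in control mice and at 0.020 to 0.249 in TDP-43 cKO mice. When every cell was thinned to 2000 UMIs, a Piwil1 UMI was found in 72.2% to 79.3% of control P SC (99.5% to 100.0% before thinning, median 70336 UMIs), in 28.3% to 36.4% of Z SC (68.2% to 85.2%, median 9777.5 UMIs), in 15.2% to 22.5% of SG (66.2% to 81.8%, median 16055.5 UMIs) and in 19.3% to 41.2% of Sertoli cells (42.5% to 70.0% before thinning, median 2339 UMIs). Cells with fewer UMIs were left out, 4 of the P SC, 22 of the Z SC, 73 of the SG and 419 of the Sertoli cells of the control mice. The shares in SG, pL/L (13.9% to 22.7%, or 53.5% to 77.3% before thinning), D (12.7% to 27.5%, or 82.5% to 95.3% before thinning, median 31878 UMIs) and RS (18.5% to 34.6%) of the control mice lay within or below the range in Sertoli cells. They are read as background, which here means only not shown to lie above Sertoli cells at this depth. Thinning took a larger part of the UMIs of SG than of the shallower Sertoli cells, whose share of free RNA was not estimated. A share within the Sertoli range therefore does not show that a gene is not expressed. Before thinning, the D share lay above the 42.5% to 70.0% of Sertoli cells, whose median depth was lower. The thinned share in P SC lay above the Sertoli range. The share in Z SC also lay within that range, although the level of Piwil1 in Z SC, 253 to 307 CPM, was above the 90.3 to 163 CPM of Sertoli cells. For Tdrd1, the thinned control shares in SG (14.4% to 18.0%), pL/L (4.17% to 12.4%), Z (15.2% to 21.4%) and RS (9.15% to 18.7%) lay within or below the Sertoli range of 11.4% to 25.3% and are read as background, though its level in Z SC, 119 to 150.2 CPM, was above the 59.9 to 95.7 CPM of Sertoli cells. The same held for Tdrd5 in SG (6.11% to 10.2%), pL/L (2.06% to 7.22%) and RS (5.46% to 16.2%) against 3.67% to 16.3% in Sertoli cells. Unthinned, a Tdrd1 UMI was found in 58.1% to 75.8% of control SG, 48.7% to 63.3% of Z SC and 27.5% to 46.6% of Sertoli cells.

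**Figure D2:**
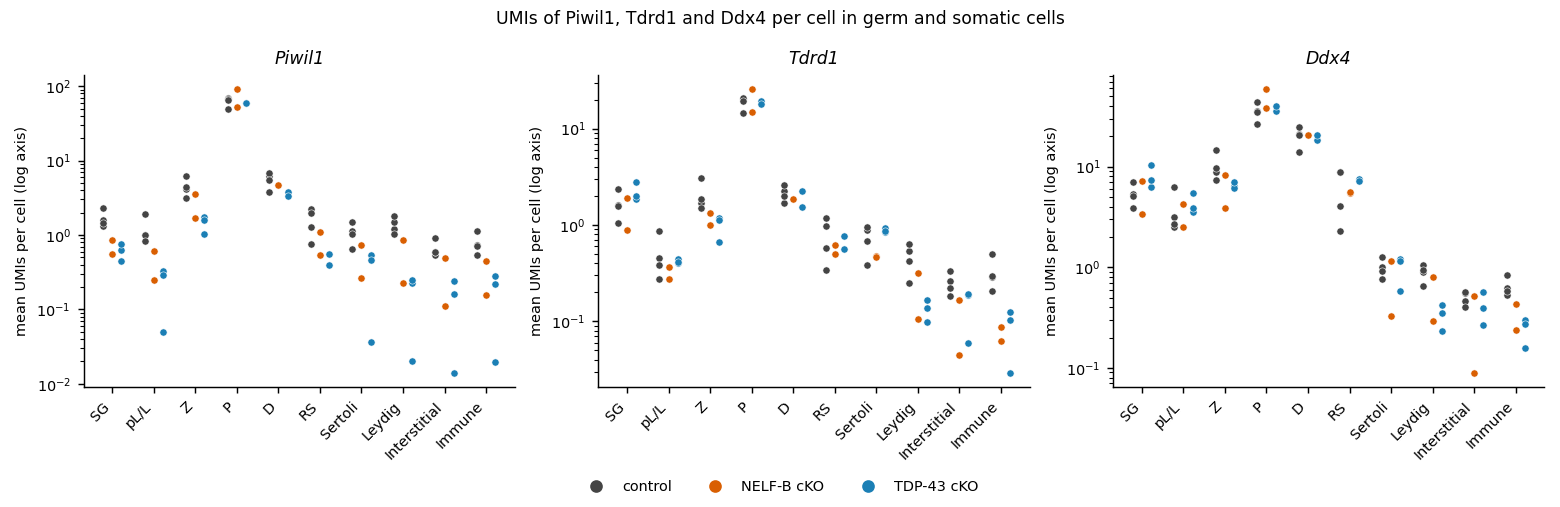
Mean UMIs per cell (y axis, log scale) of Piwil1, Tdrd1 and Ddx4 in the germ cell stages and in Sertoli, Leydig, interstitial and immune cells (x axis), with 1 point per mouse and colors for the 3 genotypes. Control P SC hold 49.6 to 68.3 Piwil1 UMIs per cell and control Sertoli cells 0.648 to 1.50.

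The genotypes were first compared in pL/L/Z SC as 1 class, the early meiotic cells in which both cKO lines still held cells in every mouse (237 to 802 per mouse). Changes are log2 fold changes of a cKO against control with their standard errors, from a model over all genes and all 9 mice, and a gene was called at an adjusted p under 0.05. Both comparisons use the same 4 control mice and are therefore not independent of each other. In the NELF-B cKO mice, 4 of the 9 genes tested were lower (Piwil2, Tdrd1, Mael and Ddx4) and none was higher, where 5.08% of all genes tested were lower and 8.12% higher. In the TDP-43 cKO mice, 8 of 9 were lower, all but Asz1, and none was higher, where 19.0% of all genes were lower and 18.9% higher. When the same removal of cells was applied to the control mice too, 2 of these 8 calls remained, Piwil1 (-2.62) and Tdrd1 (adjusted p = 0.0414), and 1 of the 4 in NELF-B cKO, Ddx4 (-0.51). In those fits 873 of 14665 and 272 of 14891 genes tested were lower. With replicate numbers taken as blocks, none of the NELF-B cKO calls remained, where 1 of 15430 genes tested was lower. Piwil4 was too low to be tested. The median change of the 9 genes was -0.79 in NELF-B cKO and -1.12 in TDP-43 cKO mice.

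Piwil1 showed the largest change in TDP-43 cKO pL/L/Z SC. It measured 254, 256, 201 and 265 CPM in control mice, 107 and 98.5 CPM in NELF-B cKO mice, and 3.00, 32.4 and 30.5 CPM in TDP-43 cKO mice. The 3 genotypes did not overlap, and the TDP-43 cKO level was 10.7-fold lower than control (log2 -3.42 ± 0.49, adjusted p = 0.000927). The NELF-B cKO difference, -1.29 ± 0.50, did not pass the test (adjusted p = 0.107). Piwil2 measured 332, 409, 295 and 373 CPM in control, 196 and 188 CPM in NELF-B cKO and 107, 168 and 179 CPM in TDP-43 cKO mice, lower by 1.90-fold (adjusted p = 0.0216) and by 2.29-fold (adjusted p = 0.0013).

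The Tudor proteins followed with smaller changes than Piwil1. Tdrd1 measured 99.5, 127, 94.6 and 115 CPM in control, 56.2 and 44.9 CPM in NELF-B cKO and 17.8, 35.8 and 28.1 CPM in TDP-43 cKO mice, 2.23-fold lower (adjusted p = 0.0171) and 3.93-fold lower (adjusted p = 0.000505). Tdrd5 was 4.45-fold lower in TDP-43 cKO (adjusted p = 0.00117), and its NELF-B cKO difference of -1.17 ± 0.35 lay just outside the threshold (adjusted p = 0.0524). All cKO mice lay below all control mice for both genes and for Piwil1, Piwil2, Mov10l1, Tdrd9, Mael and Ddx4, as they did for 12.0% of all genes with a mean of at least 1 CPM. Mael was 1.57-fold lower in NELF-B cKO (adjusted p = 0.0172) and 1.76-fold lower in TDP-43 cKO mice (adjusted p = 0.00107).

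Among the helicases, Ddx4 was 1.73-fold lower in NELF-B cKO (adjusted p = 0.011) and 2.10-fold lower in TDP-43 cKO mice (adjusted p = 0.000528), with 495 to 627 CPM in control, 331 and 347 CPM in NELF-B cKO and 260.4 to 274 CPM in TDP-43 cKO mice. Mov10l1 and Tdrd9 were lower in TDP-43 cKO mice, by 1.67-fold (adjusted p = 0.0128) and 2.17-fold (adjusted p = 0.00291), and their NELF-B cKO differences of -0.64 ± 0.22 and -0.72 ± 0.23 did not pass (adjusted p = 0.0749 and 0.0636). Asz1 passed in neither line, at -0.31 ± 0.15 and -0.20 ± 0.13 (adjusted p = 0.186 and 0.239).

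The make-up of these cells differed between the genotypes in the same direction. Cells of the Z cluster made up 66.6%, 76.2%, 63.2% and 75.3% of pL/L/Z cells in control mice, 30.8% and 40.8% in NELF-B cKO and 21.4%, 48.6% and 50.5% in TDP-43 cKO mice, counted before any cell was removed. After the removal, the sums compared held 170 Z cells of 557 and 159 of 393 in NELF-B cKO mice. In TDP-43 cKO mice they held 32 of 237, 209 of 499 and 207 of 521, a lower share than before it. Most of the genes are lower in pL/L than in Z SC. The 5 P markers, none at 0 in all mice, summed to 1833 to 2677 CPM in control, 1300 and 741 CPM in NELF-B cKO and 340 to 958 CPM in TDP-43 cKO pL/L/Z cells. Each mouse was then given the same mix of pL, L and Z cells by each cell's own markers (14.6%, 26.1% and 59.3%), not by cluster. This left 44 cells in TDP-43 cKO replicate 1 and 199 to 600 in the other mice. Ddx4 alone then stayed called in NELF-B cKO mice (-0.67). In TDP-43 cKO mice 7 genes stayed called, all of the 8 but Mov10l1, with Piwil1 at -2.90. In these fits 119 and 1615 of all 13655 genes tested were lower in NELF-B cKO and TDP-43 cKO mice. The NELF-B cKO count also moved with single mice: 5 genes were called without NELF-B cKO replicate 1, 1 (Ddx4) without replicate 2, and 2 (Tdrd1 and Ddx4) without control replicate 4, where 7.35%, 3.7% and 1.15% of all genes were lower. Without either NELF-B cKO mouse, that line is 1 mouse, assumed to vary like the mice of the other groups. With both NELF-B cKO mice kept, leaving out another mouse called up to 8 genes.

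**Figure D3:**
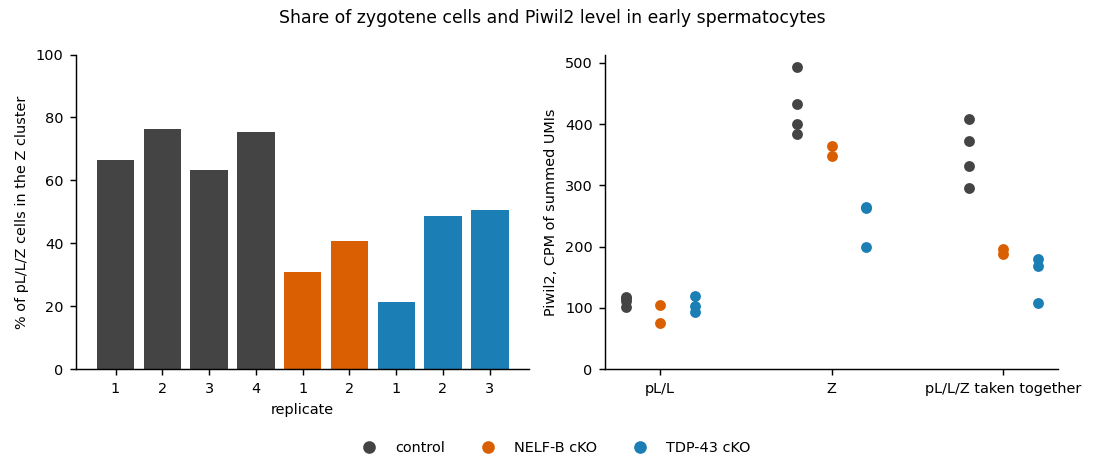
Left, percent of pL/L/Z cells, before any cell was removed, that lie in the Z cluster (y axis) for each of the 9 mice (bars, colored by genotype). Right, CPM of Piwil2 (y axis), after the removal, in pL/L, in Z and in pL/L/Z as 1 class (x axis), with 1 point per mouse. The bars stand at 63.2% to 76.2% in control mice and at 21.4% to 50.5% in the cKO mice, and Piwil2 in control mice is at 101 to 117 CPM in pL/L and at 383 to 493 CPM in Z.

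Taken apart, pL/L and Z SC gave different counts. In pL/L SC, 0 of 9 genes were called in either line, with 1 gene in NELF-B cKO and 5 genes in TDP-43 cKO mice at an unadjusted p under 0.05, as 1961 and 3243 of all 13450 genes tested were. At the adjusted threshold, 0.0372% and 0.00743% of all genes were called lower. Piwil1 stood there at 84.4 to 120.0 CPM in control, 74.1 and 15.0 CPM in NELF-B cKO and 2.02, 29.1 and 24.2 CPM in TDP-43 cKO mice (TDP-43 cKO -2.41 ± 0.67, adjusted p = 0.0923), levels that in control mice are read as background. NELF-B cKO replicate 1 lay next to the control mice and replicate 2 among the TDP-43 cKO mice.

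In Z SC, TDP-43 cKO mice showed lower levels of 7 of 9 genes, Piwil1, Piwil2, Tdrd1, Tdrd5, Tdrd9, Mael and Ddx4, where 14.6% of all genes tested were lower, and NELF-B cKO mice of 1 of 9, Ddx4, where 1.38% were lower. No gene of the 9 was called higher, where 11.8% of all genes tested were called higher in TDP-43 cKO mice. In Sertoli cells, whose clusters differed between the genotypes, the same 7 genes and not Mov10l1 or Asz1 also lay lower in every TDP-43 cKO mouse than in every control mouse, as did 20.5% of all genes with a mean of at least 1 CPM over the 9 mice. In the near-empty barcodes of 1 to 100 UMIs, a measure of RNA outside cells, Piwil1, Mael and Ddx4 did, where 25.3% of such genes did. For Ddx4 the Sertoli levels were 81.3 to 167 CPM in control and 18.4 to 59.5 CPM in TDP-43 cKO mice, and for Mael 104 to 233 CPM and 16.7 to 59.0 CPM. The part of free RNA in the Z result was not tested beyond the subtraction given below. Piwil1 measured 294, 301, 253 and 307 CPM in control, 168 and 217 CPM in NELF-B cKO and 9.41, 37.3 and 39.3 CPM in TDP-43 cKO Z SC. It was 8.41-fold lower in TDP-43 cKO mice (-3.07 ± 0.25, adjusted p = 2.2e-06) and differed by -0.66 ± 0.23 in NELF-B cKO mice, which did not pass (adjusted p = 0.111). TDP-43 cKO replicate 1, the lowest, contributed 32 Z SC, the fewest of any mouse.

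Ddx4 measured 621, 712, 592 and 679 CPM in control, 384 and 485 CPM in NELF-B cKO and 237, 251 and 242 CPM in TDP-43 cKO Z SC. The 3 genotypes did not overlap: it was 1.58-fold lower in NELF-B cKO (-0.66 ± 0.14, adjusted p = 0.0226) and 2.62-fold lower in TDP-43 cKO mice (-1.39 ± 0.13, adjusted p = 9.3e-06). Without NELF-B cKO replicate 1, which leaves 1 mouse in that line, the NELF-B cKO estimate was -0.53. The NELF-B cKO call was lost without control replicate 4 (-0.63, adjusted p = 0.0763), in a fit that kept all Z cells (-0.69, adjusted p = 0.0547), with only control and NELF-B cKO mice in the fit (-0.65, adjusted p = 0.0528) and with cells left out of control mice too (-0.35, adjusted p = 0.292). It was also lost with replicate numbers taken as blocks. Tdrd1 measured 119, 150.2, 120.4 and 132 CPM in control, 99.9 and 79.7 CPM in NELF-B cKO and 9.41, 42.8 and 29.5 CPM in TDP-43 cKO mice, 4.06-fold lower in the latter (-2.02 ± 0.25, adjusted p = 7.3e-05). For Piwil1 and Tdrd1 the thinned share of control Z SC with a UMI lay within the Sertoli range, as given above. Their CPM levels in control Z SC lay above those of Sertoli cells. Since these measures part, their differences in Z and in pL/L/Z SC are given as differences in measured level. Whether they are ones of expression was not tested. The thinned shares of Piwil2 (39.5% to 52.9%), Tdrd9 (22.6% to 33.8%), Mael (52.4% to 59.0%) and Ddx4 (55.9% to 60.7%) in control Z SC lay above those in Sertoli cells (5.07% to 12.8%, 6.42% to 14.2%, 28.1% to 37.4% and 17.5% to 31.3%), while Tdrd5, at 14.9% to 23.4% against 3.67% to 16.3%, overlapped them. In Sertoli cells Tdrd1 stood at 59.9 to 95.7 CPM in control, 51.3 and 31.1 CPM in NELF-B cKO and 30.1, 42.3 and 35.8 CPM in TDP-43 cKO mice. Every cKO mouse of both lines lay below every control mouse in Z SC for 6 genes, Piwil1, Piwil2, Tdrd1, Tdrd5, Mael and Ddx4, as did 6.26% of all genes with a mean of at least 1 CPM.

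The other genes changed less in TDP-43 cKO Z SC. Tdrd5 was 2.23-fold lower (-1.16 ± 0.15), Piwil2 1.70-fold lower (-0.77 ± 0.14, adjusted p = 0.00165), Mael 1.61-fold lower (-0.69 ± 0.13, adjusted p = 0.00184) and Tdrd9 1.56-fold lower (-0.64 ± 0.16, adjusted p = 0.0104). Mov10l1, at 569, 801 and 879 CPM against 850.3 to 978 CPM in control, did not pass (-0.24 ± 0.16, adjusted p = 0.278). Asz1, at 164 to 190.1 CPM against 139 to 172 CPM, did not pass either and its estimate was above 0 (0.15 ± 0.12, adjusted p = 0.371).

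**Figure D4:**
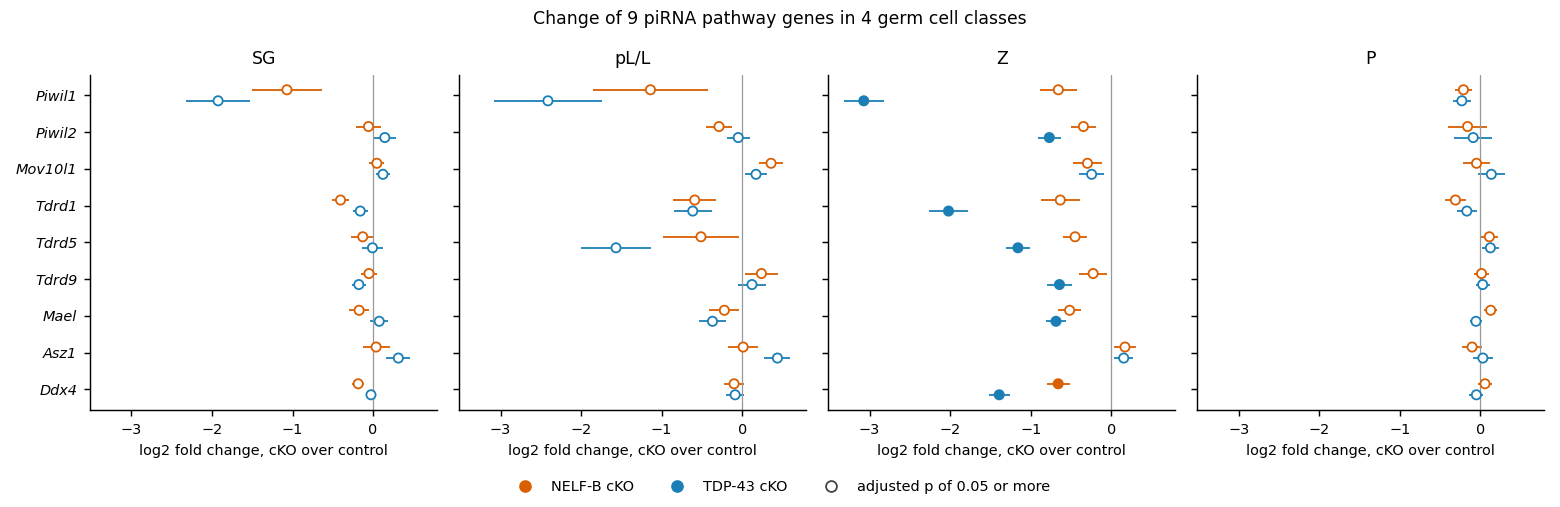
Log2 fold change of each cKO against control (x axis; bars are standard errors) for the 9 genes other than Piwil4 (y axis) in SG, pL/L, Z and P cells, with filled points at an adjusted p under 0.05. Filled points occur only in Z, for 7 genes in TDP-43 cKO and for Ddx4 in NELF-B cKO mice, and Piwil1 in TDP-43 cKO Z SC lies lowest among the filled points at -3.07.

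The Z SC of the 2 cKO lines were then compared with each other in the same model. Piwil1 was lower in TDP-43 cKO than in NELF-B cKO mice by 5.34-fold (-2.42 ± 0.27, adjusted p = 0.000427), Tdrd1 by 2.62-fold (-1.39 ± 0.29, adjusted p = 0.013), Ddx4 by 1.66-fold (adjusted p = 0.0133) and Tdrd5 by 1.64-fold (adjusted p = 0.0304), where 3.0% of all genes were lower. The remaining 5 genes did not pass, with estimates from -0.42 to 0.05. In the pooled pL/L/Z SC, none of 9 passed, where 0.24% were lower, with Piwil1 at -2.13 (adjusted p = 0.0836).

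Several values moved with the Z results of the TDP-43 cKO mice, and their part in the result was not tested except as follows. The 5 P markers summed to 2188 to 2894 CPM in control, 1914 and 1543 CPM in NELF-B cKO and 998, 1589 and 1516 CPM in TDP-43 cKO Z cells, and the 3 pL markers to 56.3 to 88.7 CPM, 91.3 and 104 CPM and 152 to 200.4 CPM. The 5 Z markers stood at 6546 to 7906 CPM in control and 8044 to 8816 CPM in TDP-43 cKO mice, and no marker of the 3 lists was at 0 in all mice. The changes were smaller when every cell was kept. In that case Piwil1 stood at 44.0, 119 and 96.9 CPM in the TDP-43 cKO mice, Ddx4 at 277, 425 and 420.3 CPM and Tdrd1 at 29, 80.6 and 67.3 CPM. These genes and Piwil2, Tdrd5, Tdrd9 and Mael still lay below every control mouse, as did 20.3% of all genes with a mean of at least 1 CPM. With every cell kept, 6 genes were called, with Piwil1 at -1.71, Tdrd1 at -1.11, Ddx4 at -0.81, Tdrd5 at -0.67, Piwil2 at -0.47 and Mael at -0.47, where 1770 of 14174 genes tested were lower. When the same removal by Tardbp UMIs was applied to the control mice as well, which left 33 to 67 Z SC per control mouse, 3 genes were called: Piwil1 at -2.42, Tdrd1 at -1.42 and Ddx4 at -0.71, where 597 of 8366 genes tested were lower. With the estimated free RNA subtracted, the same 7 genes were called, by the smaller estimate and by that from Leydig markers, with Piwil1 at -4.40 and -4.26, where 1367 of 11759 and 724 of 11398 genes tested were lower.

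SG were compared next, as the cells in which the transgene acts. None of the 10 genes was called in SG of either line, where 0.00545% of all genes were called lower in NELF-B cKO and 0.00545% in TDP-43 cKO mice. At an unadjusted p under 0.05 there were 3 genes in NELF-B cKO and 2 in TDP-43 cKO mice, and of all 18345 genes tested 1881 and 4474. Piwil1 measured 75.4 to 96.3 CPM in control, 64.7 and 18.9 CPM in NELF-B cKO and 12.0, 25.1 and 28.4 CPM in TDP-43 cKO SG (TDP-43 cKO -1.92 ± 0.40, adjusted p = 0.0969; NELF-B cKO -1.07 ± 0.44, adjusted p = 0.457, -2.19 without NELF-B cKO replicate 1 and -0.40 without replicate 2). All cKO mice lay below all control mice for Piwil1 and Ddx4, as they did for 2.61% of all genes with a mean of at least 1 CPM, and for the 5 P markers summed in SG, at 466 to 1271 CPM in control, 742 and 139 CPM in NELF-B cKO and 80.5 to 200.0 CPM in TDP-43 cKO mice, except NELF-B cKO replicate 1. Piwil1 in the Sertoli cells of the same mice stood at 90.3 to 163 CPM in control, 79.3 and 17.7 CPM in NELF-B cKO and 1.17, 26.8 and 18.6 CPM in TDP-43 cKO mice. Sertoli cells came mostly from a cluster with a median of 2104.5 UMIs in control and from one with a median of 34546.5 UMIs in TDP-43 cKO mice, so these levels compare different Sertoli clusters. The thinned share of control SG with a Piwil1 UMI was in the range of control Sertoli cells or below it. The SG values are therefore given as measured levels, and whether they reflect expression was not tested. Piwil4 stood at 4.82 to 8.74 CPM in control, 3.85 and 8.38 CPM in NELF-B cKO and 12.6, 10.5 and 11.7 CPM in TDP-43 cKO SG. The TDP-43 cKO difference did not pass (0.78 ± 0.29, adjusted p = 0.148).

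Mov10l1 and Piwil2 overlapped between the genotypes in SG, whereas Ddx4 lay just below control in the cKO mice without passing the test. Mov10l1 ranged from 275 to 342 CPM in control and from 291 to 354 CPM in the 5 cKO mice, Piwil2 from 108 to 169 CPM and from 122 to 154 CPM, and Ddx4 from 271 to 290.0 CPM and from 238 to 262 CPM. SG and pL/L/Z SC were also summed into 1 class, following the study. In this class 0 of 10 genes were called in NELF-B cKO mice, where 0.00503% of all genes were lower, with 8 genes at an unadjusted p under 0.05, as were 4033 of all 19869 genes tested, and 0.0597 as the smallest adjusted p. DESeq2 called 8 of the 10 in the same class, and 1047 of all genes lower where edgeR called 1. In TDP-43 cKO mice 7 of 10 were lower by edgeR where 11.9% of all genes were, the exceptions being Piwil4, Mov10l1 (-0.39, adjusted p = 0.0528) and Asz1. With the removal applied to control mice too, 1 of 10 was lower, where 0.945% of all genes were.

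P SC are the stage at which Piwil1, Tdrd1, Tdrd5 and Mael were highest, and none of the 9 genes was called there in either line. For NELF-B cKO 0.0178% of all genes were called lower and for TDP-43 cKO 0.0%. Piwil1 measured 800.3, 721, 868 and 813 CPM in control, 607 and 778 CPM in NELF-B cKO and 739.6 and 637 CPM in TDP-43 cKO mice. The estimates ran from -0.31 (Tdrd1, NELF-B cKO, adjusted p = 0.434) to 0.14, 1 gene in NELF-B cKO and no gene in TDP-43 cKO mice reached an unadjusted p under 0.05 (1810 and 988 of all 16839 genes tested), and Piwil1 stood at -0.21 ± 0.11 (adjusted p = 0.542) and -0.23 ± 0.11 (adjusted p = 0.889). TDP-43 cKO replicate 1, with 4 P SC, was left out of the model, NELF-B cKO replicate 2 had 32, and the 2 other TDP-43 cKO mice had 128 and 93. No cell was removed at this stage, and Nelfb stood at 16.5 to 23.6 CPM in control and at 1.24 and 4.21 CPM in NELF-B cKO P SC, while Tardbp overlapped between control (85.6 to 118 CPM) and TDP-43 cKO P SC (91.3 and 77.7 CPM). The P cluster used here held 2253 cells. The finer clustering had a P cluster of 1282 cells and a D cluster of 850 cells led by the D marker Pou5f2. In its P cluster, and with each cell's own markers, Piwil1 lay below every control mouse in both lines, and Tdrd1 in NELF-B cKO mice. Asz1 and Piwil4 did so in NELF-B cKO mice in the finer clustering only, and the other genes in neither. The share of all genes that did so was not computed.

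In D SC, Piwil1 was 1.70-fold lower in TDP-43 cKO mice (-0.76 ± 0.17, adjusted p = 0.00792), at 86.6 and 73.0 CPM against 102, 148, 131 and 108 CPM in control, the only one of the genes called, where 3.08% of all genes were lower and 7.24% higher. By each cell's own markers and in the finer clustering, control D SC ranked above Z SC for Piwil1. In the D cluster used here, the control levels lay inside the 90.3 to 163 CPM of Sertoli cells and were not shown to lie above background. The difference is therefore given as one of measured level and not read as one of expression. It rests on 34 and 18 cells in which Tardbp overlapped control, at 38.9 and 34.1 CPM against 36.0 to 53.0 CPM, and the 7 SG markers summed to 156 and 288 CPM in these cells against 12.0 to 16.2 CPM in control. With free RNA subtracted it was not called. NELF-B cKO replicate 2 had 1 D SC, so the NELF-B cKO was not compared. In RS no gene was called in either line, where 0.0% of all genes were lower in NELF-B cKO and 0.0% in TDP-43 cKO mice, with 3 genes in each line at an unadjusted p under 0.05, as 410 and 1501 of all 17146 genes tested were. Piwil1 in RS measured 69.6 to 102 CPM in control, 59.3 and 38.0 CPM under the NELF-B cKO label and 24.9 and 21.6 CPM in TDP-43 cKO mice (-2.05 ± 0.27, adjusted p = 0.128).

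The ratio of Piwil1 to Piwil2 UMIs, in which the depth of a library cancels, was compared at each stage by exact two-sided permutation tests over mice, 13 in all. The smallest p they allow is 0.133 for 4 against 2 mice and 0.0571 for 4 against 3 mice, so none could pass 0.05. In Z SC the log2 ratio averaged -0.56 ± 0.12 (SD, n = 4) in control mice and ranged from -4.28 to -2.73 in TDP-43 cKO mice, a mean difference of -2.71 with no overlap (exact permutation p = 0.0571, adjusted 0.173). In SG and pL/L SC the TDP-43 cKO differences of -2.16 and -3.02 reached the same exact p, the latter being -1.89 without TDP-43 cKO replicate 1, and both use Piwil1 levels that in control SG are read as background. The NELF-B cKO differences were -1.27 in SG, -1.25 in pL/L and -0.38 in pL/L/Z SC (exact permutation p = 0.133 each) and -0.33 in Z SC (exact permutation p = 0.267). The TDP-43 cKO difference in pL/L/Z SC was -2.82 (exact permutation p = 0.0571), or -1.93 without TDP-43 cKO replicate 1. In P SC the control ratio averaged 2.15 ± 0.09 (SD, n = 4), and the differences of 0.008 in NELF-B cKO (exact permutation p = 1.0) and -0.14 in TDP-43 cKO mice (exact permutation p = 0.133) were small. In D SC the TDP-43 cKO difference was -0.77 (exact permutation p = 0.133). In RS the differences were -1.74 in TDP-43 cKO (exact permutation p = 0.133) and -0.47 under the NELF-B cKO label (exact permutation p = 0.533), again with Piwil1 levels read as background in control mice.

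The other genes of the pathway, a list of 23, gave the following counts. In Z SC of TDP-43 cKO mice, 8 of 21 tested were lower (Pld6, Gtsf1, Exd1, Tdrd6, Tdrd12, Stk31, Prmt5 and Tcfl5), where 14.6% of all genes were, and 2 were higher (Tex15 and Tex19.1), where 11.8% were. Pld6, the mitochondrial nuclease that cuts precursors, fell from 34.1 to 43.2 CPM in control to 11.3, 13.4 and 13.1 CPM in TDP-43 cKO mice (-1.52 ± 0.19, adjusted p = 8.0e-05). Tdrd6, a chromatoid body protein, stood at 22.7 to 47.2 CPM against 0.0, 8.95 and 9.01 CPM (3.99-fold lower, adjusted p = 0.00757). Tex19.1, which restrains transposons in germ cells, was higher, at 88.5, 165 and 180 CPM against 49.4 to 58.8 CPM (1.50, adjusted p = 8.2e-05). Mybl1, which encodes A-MYB, was not called, at 126 to 162 CPM in control, 163 and 119 CPM in NELF-B cKO and 105 to 154 CPM in TDP-43 cKO mice.

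In Z SC of NELF-B cKO mice, 0 of the 21 were called. In pL/L/Z SC of NELF-B cKO mice, 4 of 21 were lower (Pld6, Exd1, Tdrd12 and Tcfl5), where 5.08% of all genes were, and 2 higher (Tex15 at 1.12 and Tex19.1 at 0.79), where 8.12% were. In TDP-43 cKO pL/L/Z SC, 8 of 21 were lower, where 19.0% of all genes were, and the same pair higher, where 18.9% were. The median change of the 21 genes was -0.24 in each line in pL/L/Z SC, and -0.18 and -0.23 in Z SC. None of the list was called in SG, pL/L, P or RS of either line, and in D SC of TDP-43 cKO mice 4 of 23 were higher (Fkbp6, Tex15, Morc1 and Tex19.1), where 7.24% of all genes were, genes of which Tex19.1 and Tex15 are known from SG and early meiosis.

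Across 24 sums of the control mice by stage, the genes whose levels ran most like each of the 10 were named by Pearson's r of log2(CPM + 1), as a description, since sums of 1 mouse share a library. Piwil1 ran most like Gm21269 (r = 0.988) and Chst1 (0.983), Piwil2 like Kdm5b (0.990) and Apbb3 (0.983), and Piwil4 like Chrdl1 (0.980) and Gm32122 (0.979). Mov10l1 ran most like Nup54 (0.987) and Ccdc9 (0.987), Tdrd9 like Mapk6 (0.970) and Arhgap23 (0.956), and Ddx4 like St13 (0.960) and Rnf10 (0.947). For the granule proteins they were Pou2f2 (0.966) and 2700054A10Rik (0.954) for Tdrd1, 2700054A10Rik (0.971) and Cks2 (0.970) for Tdrd5, Abhd8 (0.990) and Ndufaf3 (0.989) for Mael, and Sephs1 (0.980) and Degs1 (0.972) for Asz1.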

How the data were processed

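The deposited values are raw UMI counts of every barcode, whole and not normalized. They were produced by the authors with Cell Ranger on mm10 (the submitters' processing notes name versions 6.1.1 and 7.0.0). A barcode was taken as a cell if it had more than 1000 genes and less than 10% of its UMIs from mitochondrial genes. Cells were clustered with scanpy 1.11.5 and leidenalg 0.10.2 (3000 genes, 40 components, 20 neighbors, resolution 0.8), and 17 of 21 clusters with 27983 cells were named, each from at least 3 markers 2-fold above the other clusters. Clusters with a median below 2000 UMIs or with more than 80% of their cells from a single mouse stayed unnamed, limits that were chosen once the clusters were known. No doublet caller was run. Counts summed per mouse and stage, from at least 10 cells, entered the two-sided quasi-likelihood test of edgeR 4.0.16 after filterByExpr and TMM scaling, with all 9 mice in 1 model, with Benjamini-Hochberg adjustment over all genes tested, and DESeq2 1.42.0 was an alternative. The fits were tested on simulated counts with the means, library sizes and fitted spread of these data, and with the same genes changed in both lines. Differences between mice that run across many genes, as between the SG and pL/L clusters, were not simulated. The shares recovered may therefore not hold for these data. False calls numbered 3 to 11 per comparison. Log2 changes of 1 were recovered for 40.0% of changed genes in NELF-B cKO and 49.0% in TDP-43 cKO mice in SG. In pL/L/Z the shares were 51.5% and 62.6%, and in P 55.6% and 49.5%.

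The genes reported by name are the 10 genes, the list of 23 pathway genes and, for each of the 10, the 2 genes most alike in control mice. The genes and lists were chosen with earlier results of these data known. Replicates are separate mice, and replicate numbers were taken only as names in the main fits. Alternatives on pL/L and Z apart, the comparison of the cKO lines, and free RNA by Leydig markers alone were chosen after seeing the data. Promoters came from RefSeq (GRCm38.p6). Intervals between mice cover no error in the naming of stages.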

Additional observations from a re-analysis of the deposited data

Results flagged for a closer look

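In 60 groups of 4 control mice (10 genes at 6 stages), 1 mouse stood apart by Dixon's test in 2, where chance gives about 1 in 20. Mov10l1 in pL/L SC was 208 CPM in control replicate 1 and 271 to 276 CPM in the other control mice, and Piwil4 in pL/L SC was 0.475 CPM in control replicate 3 and 0.0 CPM in the others. With the others at 0.0 CPM, any UMI of Piwil4 in that mouse passes this test. The effects of the 2 cKO lines against the same control mice differed in Z SC for 4 genes by the test of the difference itself (edgeR, TDP-43 cKO against NELF-B cKO): Piwil1 by -2.42 on the log2 scale (adjusted p = 0.000427), Tdrd1 by -1.39 (adjusted p = 0.013), Ddx4 by -0.73 (adjusted p = 0.0133) and Tdrd5 by -0.71 (adjusted p = 0.0304).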

How the results depend on the processing

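The number of the 10 genes called is given here under each alternative that moved it by over 1.5 times, with the percent of all genes tested that were called lower in parentheses, and the causes were not tested. The genes called were lower, except that Piwil4 in SG and in SG and pL/L/Z together, Asz1 in pL/L and Mov10l1 in D of TDP-43 cKO mice were higher under some settings. In pL/L/Z of NELF-B cKO mice (4 called, 5.08%), DESeq2 called 7 (9.55%), free RNA subtracted by Leydig markers 7 (5.6%), every gene with a UMI in the test 8 (3.79%), only control and the cKO compared 8 (6.08%), the same mix of stages 1 (0.871%), targeted-gene cells left out of control mice too 1 (1.83%), a finer clustering 1 (1.65%), the thresholds of the study (adjusted p 0.01, log2 of 1) 0 (0.162%), pL/L alone 0 (0.0372%; 0 and 0.221% with free RNA subtracted) and Z alone 1 (1.38%; 1 and 0.442%), and leaving out each mouse gave 1 to 8 (1.15% to 8.94%). In pL/L/Z of TDP-43 cKO mice (8 called, 19.0%), leaving such cells out of control mice too gave 2 (5.95%) and pL/L alone 0 (0.00743%; 0 and 0.00819% with free RNA subtracted), and leaving out each mouse gave 8 to 8 (14.3% to 22.7%). In Z of TDP-43 cKO mice (7 called, 14.6%), leaving such cells out of control mice too gave 3 (7.14%), the thresholds of the study 4 (5.62%), leaving out each mouse 7 to 7 (8.79% to 17.9%), and the other settings run 6 or 7. In Z of NELF-B cKO mice (1 called, Ddx4, 1.38%), RLE scaling gave 2 (1.61%), DESeq2 3 (3.21%), every gene 4 (3.29%) and own markers 5 (4.3%), and 0 were called with no cell left out (1.5%), only control and the cKO compared (0.705%), cells left out of control mice too (0.0247%) and the thresholds of the study (0.0999%), with 0 to 4 without each mouse (0.307% to 3.25%). In pL/L of TDP-43 cKO mice (0 called, 0.00743%), DESeq2 called 2 (6.76%), every gene 2 (4.56%) and only control and the cKO compared 4 (11.3%), with 0 to 3 without each mouse (0.00743% to 10.2%). In SG (0 called in both lines, 0.00545%) DESeq2 called 1 gene in each line (0.502% in NELF-B cKO, 8.21% in TDP-43 cKO), only control and the cKO compared gave 2 in TDP-43 cKO (10.4%), and leaving out each mouse gave 0 to 2 in TDP-43 cKO (0.00541% to 10.5%). In SG and pL/L/Z together, NELF-B cKO (0 called, 0.00503%) gave 8 with DESeq2 (5.28%), 1 with Leydig markers (0.655%), 4 with stages from each cell's own markers (1.36%), 3 with cells left out of control mice too (2.36%) and 0 to 2 without each mouse (0.00505% to 0.749%), and TDP-43 cKO (7 called, 11.9%) gave 1 with cells left out of control mice too (0.945%), 1 with the thresholds of the study (0.856%) and 4 to 9 without each mouse (2.89% to 15.6%). In P, leaving out each mouse gave 0 to 1 in NELF-B cKO (0.0% to 3.36%). In D of TDP-43 cKO (1 called, 3.08%), DESeq2 called 2 (2.93%), every gene 3 (5.01%), and free RNA subtracted (0.661%), own markers (0.0115%), finer clustering (0.0761%) and the thresholds of the study (0.0264%) 0, with 0 to 2 without each mouse (0.112% to 5.09%). In RS of TDP-43 cKO (0 called, 0.0%), DESeq2 (0.0175%), every gene (0.269%) and cells left out for a Tardbp UMI (0.016%) each called 1, with 0 to 2 without each mouse (0.0% to 3.57%).

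Estimates that changed sign were Asz1 in pL/L/Z (0.17 in NELF-B cKO and 0.069 in TDP-43 cKO with the same mix, 0.26 in TDP-43 cKO with cells left out of control mice too, 0.012 with the finer clustering), Mov10l1 in pL/L/Z of TDP-43 cKO (0.0898 with cells left out of control mice too), Piwil1 in SG of NELF-B cKO (0.64 with free RNA by Leydig markers), Piwil4 in SG of NELF-B cKO (-0.86 to 0.24 without each mouse, the latter without NELF-B cKO replicate 1), and the Piwil1 to Piwil2 ratio in P of NELF-B cKO (-0.015 to 0.043 without each mouse).

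Whether replicate numbers pair the samples was not settled: over 48 pairs of same-numbered mice, correlations ran from -0.393 to 0.410. Both same-numbered pairs of control and NELF-B cKO mice were positive in SG (0.393 and 0.305), pL/L (0.381 and 0.410) and Z (0.204 and 0.116). In P SC they were 0.012 and -0.129, and those of the 2 cKO lines in SG were -0.393 and -0.260. With 2 NELF-B cKO mice, their deviations from the group mean mirror each other, so these correlations cannot decide the question. The pair of control and NELF-B cKO replicate 1 in D SC had no value, since that line had only replicate 1 there. With a replicate block, 0 genes were called in pL/L/Z of NELF-B cKO (0.00648% of all genes lower), 0 in SG and pL/L/Z together of TDP-43 cKO (0.00503%), 0 in Z of NELF-B cKO (0.0308%), 6 in Z of TDP-43 cKO (9.52%) and 1 in RS of TDP-43 cKO (1.6%). Few cells limit D and RS of the cKO mice, with 13 to 79 cells in 5 of the sums compared.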
